A study of Rattus norvegicus and Mus musculus with 34 samples.

Results

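Chemokine receptors guide leukocytes from the blood into injured tissue, and 7 of them were followed through healing of a jaw bone defect with and without its sensory nerve. The 7 genes were Ccr1, Ccr2, Cx3cr1, Ccr7, Cxcr4, Ackr3 and Ccrl2, chosen by gene symbol. All 7 were listed among the 20022 genes of the rat tables, and all 7 among the 51912 genes of the table from a mouse macrophage line. In vivo, young male wild type Sprague-Dawley rats received a periodontal bone defect in the mandible. The inferior alveolar nerve, which carries sensation from the lower jaw, was left intact in the sensory nerve+ groups (periodontal bone defect alone), and a stretch of it was removed in the sensory nerve- groups (periodontal bone defect and sensory denervation). Healing tissue, labelled as mixed cells, was taken from separate rats at days 3, 7 and 14, with 3 rats in the sensory nerve+ day 3 group and 4 rats in each of the other 5 groups, 23 rats in all. In vitro, RAW264.7 cells, an established mouse macrophage line, were given 100 ng/ml of lipopolysaccharide (LPS) for 6 h, alone in 6 cultures or with 10 nM of calcitonin gene-related peptide (CGRP), a neuropeptide of sensory nerves, in 5 cultures. All rats carried the bone defect and all cultures received LPS, so neither set held uninjured tissue or unstimulated cells. The rat tissue came from whole nerve transection and not from loss of CGRP alone.

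Chemokines are small secreted proteins that bind receptors with 7 membrane-spanning segments on leukocytes, which then signal through inhibitory G proteins and turn the cell towards the source. Ccr2, the receptor of Ccl2 and Ccl7, brings inflammatory monocytes out of bone marrow, and Ccr1, a receptor of Ccl3 and Ccl5, is carried by monocytes, neutrophils and osteoclast precursors. Cx3cr1 binds the membrane-held chemokine Cx3cl1 and marks patrolling monocytes and resident macrophages. Ccr7 binds Ccl19 and Ccl21 and takes dendritic cells and naive lymphocytes to lymph nodes. Cxcr4, the receptor of Cxcl12, holds leukocytes in bone marrow, whereas Ackr3 and Ccrl2 are atypical receptors that do not couple to G proteins. Ackr3 takes up Cxcl12, and Ccrl2 presents the attractant chemerin, the product of Rarres2.

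The stretch upstream of the transcription start is shown for 3 of these genes, Cx3cr1 because it had the smallest adjusted p of the 7 in the rats, and Cxcr4 and Ccrl2 because their levels had the highest r of any pair over all 23 rats. RefSeq promoters of the rat assembly GRCr8, which is not the assembly the reads were aligned to, were found for 6 of the 7 genes, all but Ccr7. Each line gives the 250 bases before the start, 5′ to 3′ along the gene, and the capitals mark matches on either strand to the TATA box letters TATAAA or the GC box letters GGGCGG.
Cx3cr1, chr8:128677067-128677316, minus strand: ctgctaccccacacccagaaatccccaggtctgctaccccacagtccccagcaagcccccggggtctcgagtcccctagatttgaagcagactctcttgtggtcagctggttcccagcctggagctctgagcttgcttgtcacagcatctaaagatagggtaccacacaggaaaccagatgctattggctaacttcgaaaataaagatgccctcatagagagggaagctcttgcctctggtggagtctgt
Cxcr4, chr13:42634289-42634538, minus strand: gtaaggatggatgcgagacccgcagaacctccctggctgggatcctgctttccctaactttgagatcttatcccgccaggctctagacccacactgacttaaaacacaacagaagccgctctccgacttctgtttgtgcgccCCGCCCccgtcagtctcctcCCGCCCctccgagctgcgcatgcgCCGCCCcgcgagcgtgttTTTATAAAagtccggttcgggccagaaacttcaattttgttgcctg
Ccrl2, chr8:119914974-119915223, minus strand: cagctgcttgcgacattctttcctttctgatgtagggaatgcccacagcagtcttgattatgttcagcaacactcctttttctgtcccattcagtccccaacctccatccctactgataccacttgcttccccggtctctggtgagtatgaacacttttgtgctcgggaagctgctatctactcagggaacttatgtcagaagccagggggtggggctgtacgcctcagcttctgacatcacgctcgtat
TATAAA stood in the upstream bases of Cxcr4 and Ackr3 and in 12.9% of all 33469 rat promoters, and in Cxcr4 it was read on both strands over overlapping bases. GGGCGG stood in Cxcr4 alone among the 6, at 3 places, and in 30.5% of all promoters. Of the other letters searched, GAGGAA, the core bound by the myeloid factor PU.1, was found in Ccr1 and in 23.3% of all promoters. TGACGTCA, the cyclic AMP response element, was found in none of the 6 and in 1.59% of all promoters. These matches describe the letters only, and neither Cx3cr1 nor Ccrl2 held any of the 4 in this window.

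Rat libraries held between 14854389 and 18742274 counts and macrophage cultures between 55614185 and 71538840 reads. Levels are given as CPM, a gene's counts relative to the library total, after TMM scaling, which sets libraries on a common scale. The 4 sensory nerve- day 7 rats were deposited in a table of their own, so table and transection cannot be told apart at day 7. Hemoglobin genes took a median of 28.1% and up to 47.4% of the counts in the sensory nerve- day 14 rats, against up to 26.2% in any rat of the other groups, and its part in the day 14 results was not tested. Replicate 2 of sensory nerve+ day 14 stood apart in leukocyte content. Its Ptprc level, the pan-leukocyte marker CD45, was 671 CPM against 141, 299 and 343 CPM in the other rats of its group, and its 6 neutrophil markers summed to 6008 CPM against 83.4, 375 and 1559 CPM. Leukocyte markers were present in all 6 rat groups, with all 5 listed markers above a floor of 3 counts in every group. As the tissue was sequenced in bulk, fewer cells of a type and less RNA per cell cannot be told apart.

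**Figure D1:**
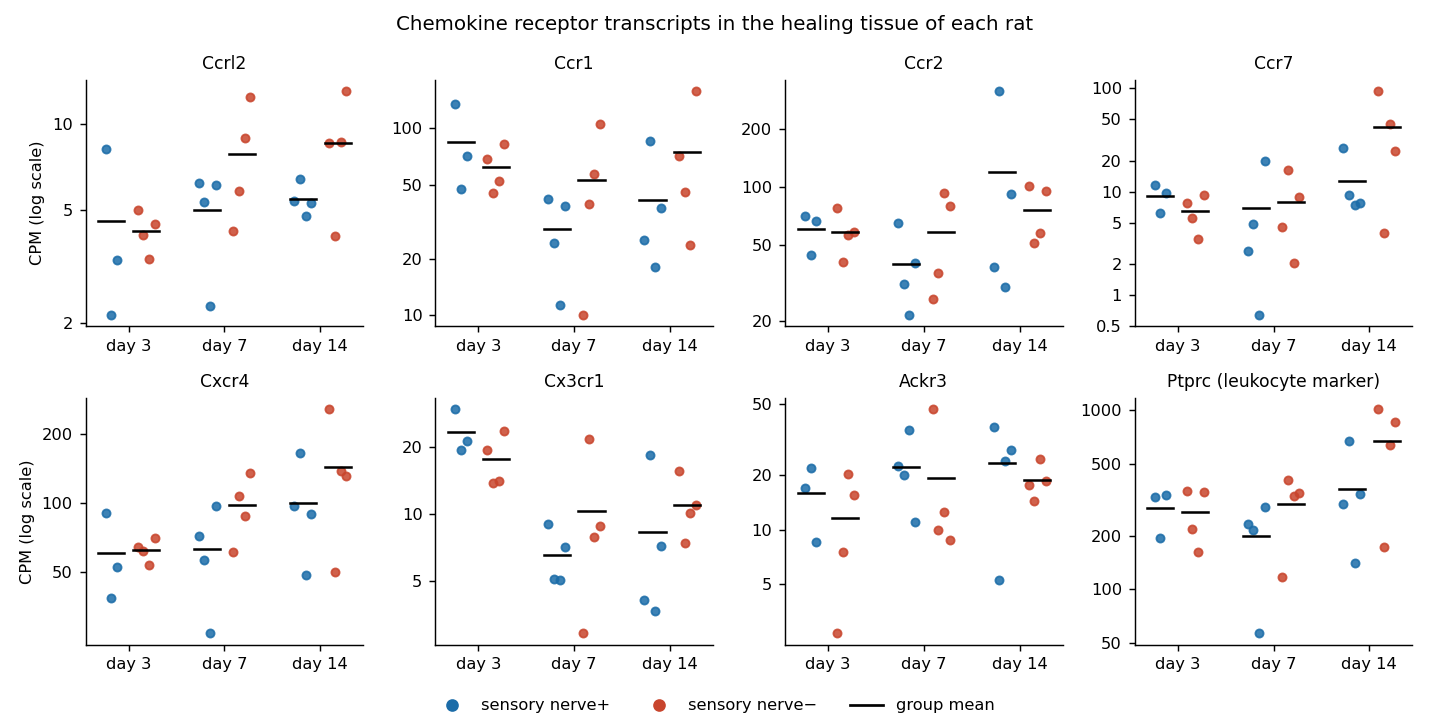
Each point is the CPM of 1 rat on a log axis, for the 7 receptors and the leukocyte marker Ptprc, with sensory nerve+ in blue, sensory nerve- in red and black bars for the group means. The Cx3cr1 points at day 3 lie at 13.8 CPM or more in both nerve groups, while those at day 7 reach as low as 2.92 CPM.

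Cx3cr1 had the smallest adjusted p of the 7 receptors over the rat comparisons, and its level differed by day. In sensory nerve+ rats it stood at 29.4, 19.3 and 21.3 CPM at day 3, at 9.02, 5.10, 5.09 and 7.12 CPM at day 7, and at 4.10, 18.3, 3.68 and 7.22 CPM at day 14. No day 7 or day 14 rat of these groups reached the lowest day 3 rat. In sensory nerve- rats Cx3cr1 stood at 19.3, 13.8, 14.1 and 23.4 CPM at day 3, at 2.92, 21.6, 7.87 and 8.81 CPM at day 7, and at 15.6, 7.39, 10.0 and 10.9 CPM at day 14. Here 1 day 7 rat and 1 day 14 rat lay within the day 3 range. The group means ran from 6.58 CPM in sensory nerve+ day 7 and 8.32 CPM in sensory nerve+ day 14 to 17.7 CPM in sensory nerve- day 3 and 23.3 CPM in sensory nerve+ day 3, and each group overlapped its neighbour in this order.

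Cx3cr1 fell between day 3 and day 7 in sensory nerve+ rats, from 23.3 ± 5.31 to 6.58 ± 1.88 CPM (SD, n = 3 and 4). On the log2 scale it fell by 1.78 (SE 0.275), and the edgeR quasi-likelihood test gave an adjusted p of 0.0151. It was the only receptor of the 7 called in this comparison, in which 6.67% of 15016 genes were called in either direction and 1.79% were lower. The call rested on few rats. Without replicate 1 or replicate 3 of day 3 the adjusted p was 0.0570 and 0.0578, without replicate 2 of day 7 it was 0.0522, and the log2 fold change lay between -1.97 and -1.63 with any 1 rat left out. In the same comparison the ranges of Ccr1 also did not overlap, with 136, 47.3 and 70.8 CPM at day 3 against 41.9, 24.5, 11.4 and 38.5 CPM at day 7. Ccr1 stood at -1.51 on the log2 scale (SE 0.511, adjusted p = 0.125, edgeR). It was called only with DESeq2 (adjusted p = 0.0284), among 2807 of 15016 genes that DESeq2 called. Ranges without overlap were seen for 25.4% of all genes in this comparison, so 2 of 7 receptors lay near the background. Leukocyte markers moved with both, as all 5 gave values below 0 with a median of -0.59 and none called, and their summed level lay between 1128 and 2501 CPM at day 3 and between 420 and 1446 CPM at day 7. Of the 10 monocyte and macrophage markers 7 lay below 0, with a median of -0.44 and none called. All 5 skeletal muscle markers were called higher at day 7, with a median of 8.02 on the log2 scale. The part of these cells in the receptor values was not tested.

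At day 14 against day 3 in sensory nerve+ rats none of the 7 receptors was called, where 5.78% of 15065 genes were, and Cx3cr1 was the 1 receptor without overlap, against 24.5% of all genes. Cx3cr1 gave -1.47 on the log2 scale (SE 0.572, adjusted p = 0.150, edgeR). Without replicate 2 of day 14, the rat high in leukocyte markers, the value was -2.17 with an adjusted p of 0.0112 by edgeR. Depending on the rat left out, 0 to 3133 of all genes were called in this comparison. Of the 10 monocyte and macrophage markers 7 lay below 0 with all rats, with a median of -1.04. Among them 2 were called lower, where 3.09% of all genes were, and their part in the Cx3cr1 value was not tested. Ccr1 gave -0.997 (SE 0.585) and Cxcr4 0.75 (SE 0.447), both short of the threshold. Ccr2 gave 1.00 (SE 0.817), a value set by the same rat, as it had 313 CPM of Ccr2 where the other 3 had 38.2, 30.3 and 91.4 CPM, and without it the value was -0.12. From day 7 to day 14 no receptor was called, and 0.0202% of 14867 genes were. All 7 log2 fold changes were above 0, between 0.07 and 1.61, with Ccr2 at 1.61 (SE 0.752) and Cxcr4 at 0.69 (SE 0.446). Scaling by the library total put Ackr3 below 0 there, and leaving out single rats did so for Ackr3, Ccrl2, Cx3cr1 or Ccr1.

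Ccr7, the lymph node homing receptor, was highest in the sensory nerve- day 14 group. Its 4 rats had 94.4, 3.95, 45.4 and 24.5 CPM, while the sensory nerve- rats of day 3 had 7.72, 5.51, 3.497 and 9.26 CPM and those of day 7 had 4.55, 16.2, 2.05 and 8.87 CPM. Among the day 14 rats 3 lay above every earlier sensory nerve- rat, and replicate 2 lay within the day 3 range. In sensory nerve+ rats Ccr7 stood at 11.7, 6.19 and 9.60 CPM at day 3, at 2.65, 4.90, 0.641 and 19.8 CPM at day 7, and at 26.3, 9.21, 7.35 and 7.80 CPM at day 14. Group means lay between 6.50 and 12.7 CPM in 5 groups and at 42.1 ± 38.8 CPM (SD, n = 4) in sensory nerve- day 14, and every neighbouring pair overlapped.

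From day 3 to day 14 in sensory nerve- rats Ccr7 rose by 2.67 on the log2 scale (SE 0.818), with an adjusted p of 0.0483 by edgeR. It was the 1 receptor called, beside 23.5% of 14449 genes in either direction and 8.89% higher, and no receptor separated the groups, where 26.7% of genes did. The call stood at the edge of the threshold. It was lost without any 1 of 7 of the 8 rats, with adjusted p between 0.0710 and 0.119, and reached 0.00673 only without replicate 2 of day 14, the rat low in Ccr7. Scaling by the library total (adjusted p = 0.0640) or omitting the filter on low counts (adjusted p = 0.0561) also ended it. Markers of other leukocytes moved with Ccr7. The 8 lymphocyte markers summed to 880, 127, 533 and 234 CPM in the 4 day 14 rats against 95.5 to 207 CPM at day 3, 3 of the 8 (Cd3e, Cd3d and Cd2) were called higher, and none of the 8 was at or under the floor in either group. The median log2 fold change of the 8 was 2.71, against -0.05 over all genes tested. Their part in the Ccr7 result was not tested. Ptprc itself gave 1.27 on the log2 scale (SE 0.509, adjusted p = 0.104, edgeR).

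Cxcr4 and Ccrl2 stood next in sensory nerve- rats, short of the threshold in edgeR. Cxcr4 was at 64.1, 61.9, 53.8 and 70.6 CPM at day 3, at 60.9, 108, 88.0 and 135 CPM at day 7, and at 255, 50.1, 138 and 131 CPM at day 14. At day 14, 3 of 4 rats lay above every day 3 rat and the same replicate 2 lay below them. From day 3 to day 14 it gave 1.16 on the log2 scale (SE 0.418, adjusted p = 0.0779, edgeR). Ccrl2 was at 4.99, 4.08, 3.36 and 4.44 CPM at day 3, at 4.22, 5.80, 8.89 and 12.5 CPM at day 7, and at 8.59, 4.06, 8.61 and 13.05 CPM at day 14. It gave 0.98 (SE 0.344, adjusted p = 0.0737, edgeR) from day 3 to day 14. DESeq2 called both, with adjusted p of 0.0196 for Cxcr4 and 0.0242 for Ccrl2, and so did edgeR without replicate 2 of day 14. Many genes were called in such fits, 4852 of 14449 with DESeq2 and 1620 to 4346 with edgeR and any 1 rat left out. Cx3cr1 gave -0.72 (SE 0.278, adjusted p = 0.0936, edgeR), the 1 receptor of 7 below 0, and was called without replicate 1 of day 14 (adjusted p = 0.0467). Of the 10 monocyte and macrophage markers 6 lay below 0, with a median of -0.43. Among them 3 were called lower, where 14.6% of all genes were, and their part in the Cx3cr1 value was not tested. When libraries were scaled by their total, the median of all genes in this comparison moved to -0.42, and Ccr1 and Ccr2 then lay below 0 but above that median.

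None of the 7 was called from day 3 to day 7 in sensory nerve- rats, where 10.5% of 14576 genes were, or separated these groups, where 21.7% did. Ccrl2 gave 0.88 (SE 0.338, adjusted p = 0.133), Cxcr4 0.63 (SE 0.223, adjusted p = 0.108) and Cx3cr1 -0.79 (SE 0.526, adjusted p = 0.359), all by edgeR. Cxcr4 was called with DESeq2 (adjusted p = 0.0426), among 3217 of 14576 genes that it called. Cxcr4 was also called by edgeR without replicate 1 of day 7 (adjusted p = 0.0263). With any 1 rat left out, edgeR called 0 to 1359 genes in this comparison. None was called from day 7 to day 14, where 0.0138% of 14447 genes were, or separated, where 12.3% did, and Ccr7 gave 2.43 (SE 0.924, adjusted p = 0.171, edgeR). DESeq2 called Ccr7 there (adjusted p = 0.0400), among 1991 of 14447 genes that it called.

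**Figure D2:**
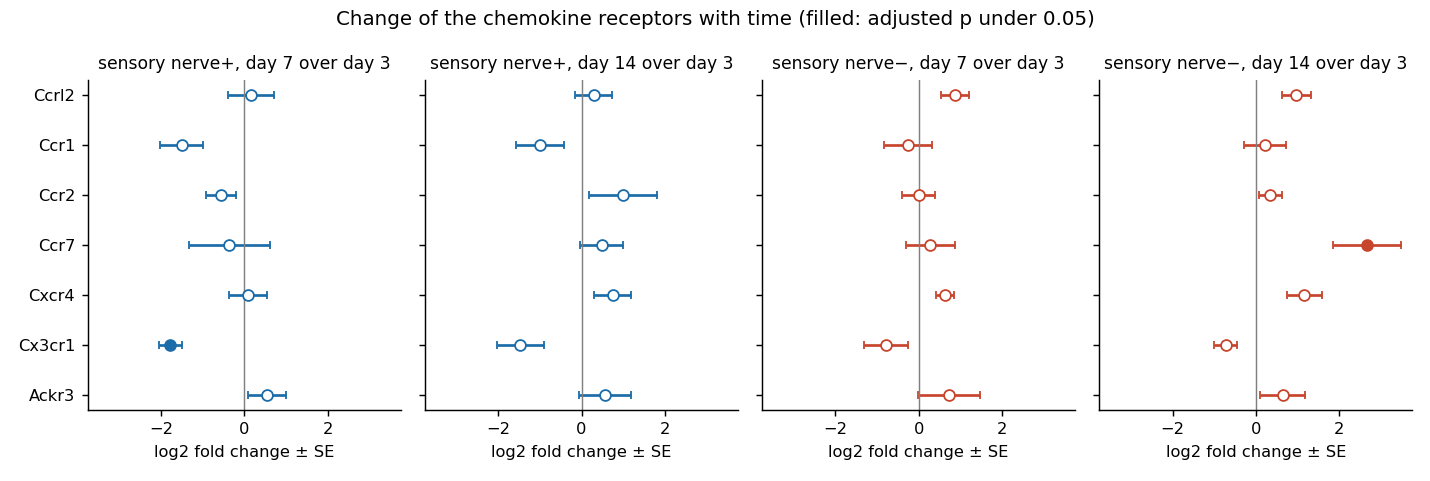
Points are log2 fold changes of the 7 receptors against day 3 with bars of 1 SE, for day 7 and day 14 in sensory nerve+ (blue) and sensory nerve- (red) rats, and filled points passed an adjusted p of 0.05. Only Cx3cr1 at day 7 in sensory nerve+ (-1.78) and Ccr7 at day 14 in sensory nerve- (2.67) are filled.

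The remaining receptors were scattered over all groups. Ccr1 group means ran from 29.1 CPM in sensory nerve+ day 7 to 84.6 CPM in sensory nerve+ day 3, with single rats between 10.1 and 159 CPM. Ccr2 group means ran from 39.4 CPM in sensory nerve+ day 7 to 118 ± 133 CPM (SD, n = 4) in sensory nerve+ day 14, and 5 of the 6 means lay at 75.9 CPM or below. Ackr3, the Cxcl12 scavenger, had means from 11.6 CPM in sensory nerve- day 3 to 23.4 CPM in sensory nerve+ day 14, with single rats between 2.67 and 46.4 CPM. For each of the 7 receptors, every group overlapped its neighbour when the 6 groups were ordered by mean. Expected counts were not whole in 19 to 21 of the 23 rats for Ccr1, Ccr2 and Cxcr4, and in 6 to 10 rats for the other 4, and the cause was not tested.

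Nerve transection was the comparison the study was built around, and no receptor passed its test at any day. At day 3, 0.0% of 14695 genes were called, 0.83% had an unadjusted p under 0.05 and 1.61% did not overlap between groups, and no receptor did either. The 7 log2 fold changes lay between -0.51 and 0.04, 6 of them below 0, with SE between 0.230 and 0.677. Leaving out single rats or scaling by the library total turned the sign of Ccr1, Ccr2, Cxcr4 or Ccrl2, so these signs were not stable. Ccr7 gave -0.51 (SE 0.365), Ackr3 -0.47 (SE 0.677) and Cx3cr1 -0.42 (SE 0.231), and all of these stayed below 0 in every alternative run.

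At day 7, 0.0% of 14716 genes were called, and 1.46% but no receptor had an unadjusted p under 0.05. Ccr1 gave 0.87 (SE 0.653), Ccrl2 0.66 (SE 0.425), Cx3cr1 0.63 (SE 0.533), Cxcr4 0.63 (SE 0.382) and Ccr2 0.57 (SE 0.474), all with an adjusted p of 0.9997 by edgeR. For Ccr1 the sensory nerve+ rats had 41.9, 24.5, 11.4 and 38.5 CPM and the sensory nerve- rats 10.1, 39.6, 57.3 and 106 CPM. The lowest and the highest rat were both sensory nerve-, and no receptor separated the groups, where 0.754% of all genes did. The 5 leukocyte markers moved with the receptors, with all 5 log2 fold changes above 0 and a median of 0.76, against -0.01 over all genes. Their summed level lay between 420 and 1446 CPM in sensory nerve+ and between 620 and 2572 CPM in sensory nerve- rats, and their part in the receptor values was not tested. Cx3cr1 was set by replicate 2 of sensory nerve- day 7, at 21.6 CPM, and without it the value was -0.01.

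At day 14, 0.0% of 14610 genes were called by edgeR, 9.32% had an unadjusted p under 0.05 and 3.37% did not overlap between groups, and no receptor did either. Ccr7 gave the largest value of the 7, 1.72 (SE 0.847, unadjusted p = 0.0767 and adjusted p = 0.519, edgeR), with replicate 2 of sensory nerve- day 14 at 3.95 CPM below every sensory nerve+ rat. All 8 lymphocyte markers (median 1.01) and all 5 leukocyte markers (median 0.65) lay above 0 beside it, none called, and their part was not tested. Ccr1 gave 0.83 (SE 0.646), Ccrl2 0.63 (SE 0.328), Cxcr4 0.51 (SE 0.502) and Cx3cr1 0.40 (SE 0.521). Ccr2 gave -0.65 (SE 0.707) and turned to 0.45 without replicate 2 of sensory nerve+ day 14. Scaling by the library total moved the median of all genes to -0.41, and Cxcr4 and Cx3cr1, at -0.09 and -0.17, then lay below 0 but above that median. DESeq2 called 95 genes at day 14 and none of the 7 receptors.

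Whether the transection difference itself changed with time was asked by an interaction term over all 23 rats. No receptor and 0.0% of 15858 genes were called for day 7 against day 3, with 1.03% of genes under an unadjusted p of 0.05. Ccr1 gave 1.31 (SE 0.932) and Cx3cr1 1.05 (SE 0.728). No receptor and 0.0% of genes were called for day 14 against day 3, where Ccr7 gave 2.23 (SE 1.25, adjusted p = 0.757), Ccr1 1.29 (SE 0.932) and Ccr2 -0.59 (SE 0.840), by edgeR. So the call of Cx3cr1 in sensory nerve+ rats and that of Ccr7 in sensory nerve- rats were not shown to differ between the nerve groups.

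**Figure D3:**
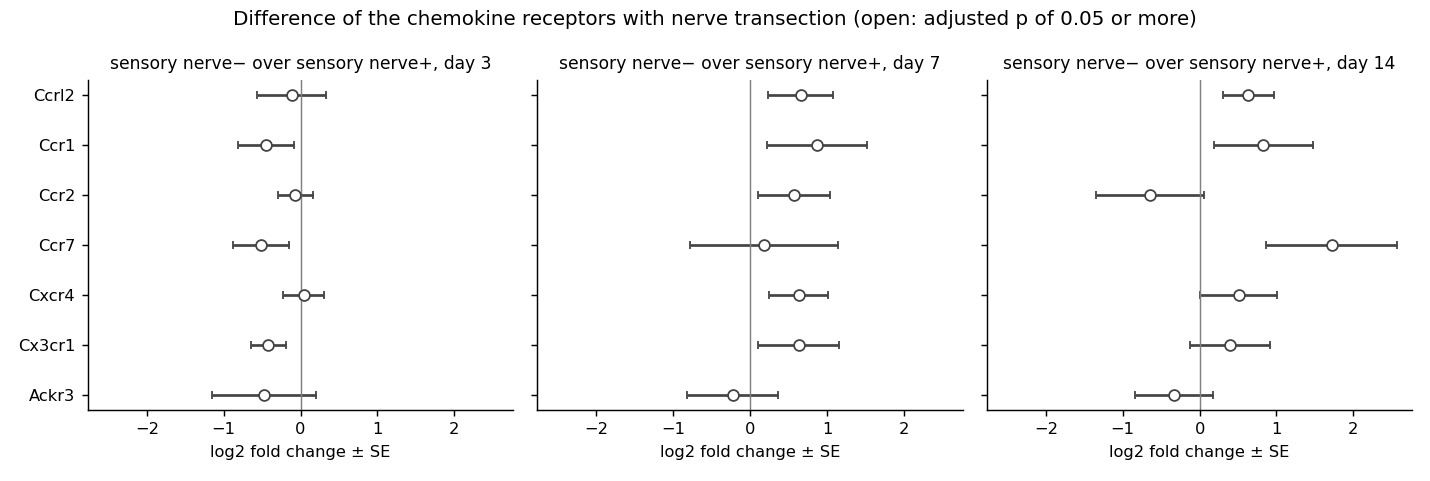
Points are log2 fold changes of the 7 receptors in sensory nerve- over sensory nerve+ rats with bars of 1 SE, in a panel for each of days 3, 7 and 14. All points are open, as none passed an adjusted p of 0.05, and Ccr7 at day 14 lies farthest from 0, at 1.72.

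Set against Ptprc in the same rat, Cx3cr1 of day 14 lay under that of day 3 with and without the nerve. The ratio of Cx3cr1 to Ptprc lay between 0.0634 and 0.0997 in sensory nerve+ day 3 and between 0.0545 and 0.0866 in sensory nerve- day 3. At day 14 it lay between 0.0137 and 0.0272 in sensory nerve+ and between 0.0128 and 0.0428 in sensory nerve- rats, below every day 3 rat of the same nerve group. Such a separation downwards was seen for 4.0% and 4.51% of all genes. At day 7 the sensory nerve- rats, between 0.0237 and 0.0526, also lay below their day 3 group, as 3.03% of genes did, while in sensory nerve+ rats replicate 3, low in Ptprc at 56.9 CPM, reached 0.0894. These ratios were described and not tested. Ptprc marks all leukocytes, and the markers of single leukocyte types gave medians of unlike sign from day 3 to day 14. In sensory nerve+ rats none of the 5 neutrophil and 8 lymphocyte markers tested was called. In sensory nerve+ and sensory nerve- rats the median log2 fold change was 3.59 and 2.64 for neutrophil markers and 1.75 and 2.71 for lymphocyte markers. For monocyte and macrophage markers it was -1.04 and -0.43. The part of these cells in the ratios was not tested.

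The other receptors kept other relations to Ptprc. Ccr1 relative to Ptprc lay lower after day 3 in sensory nerve+ rats, without overlap. It was 0.211 to 0.416 at day 3, 0.114 to 0.200 at day 7 and 0.0843 to 0.128 at day 14. Of all genes, 0.413% at day 7 and 4.0% at day 14 separated downwards from day 3, and 14.9% and 3.29% upwards. Ptprc, the shared denominator, gave -0.49 (SE 0.499) and 0.37 (SE 0.496) on the log2 scale over these days. In sensory nerve- rats the Ccr1 ratios of day 3 and later days overlapped. The Cxcr4 ratio had group means between 0.211 and 0.360 and overlapped in every comparison. The Ccr7 ratio had its highest mean, 0.0539, in sensory nerve- day 14, where its range of 0.0229 to 0.0934 overlapped those of all other days. At day 3 the Ccr7 ratio was 0.0286 to 0.0359 in sensory nerve+ and 0.0215 to 0.0264 in sensory nerve- rats, without overlap, and 0.15% of all genes lay lower in the same way.

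**Figure D4:**
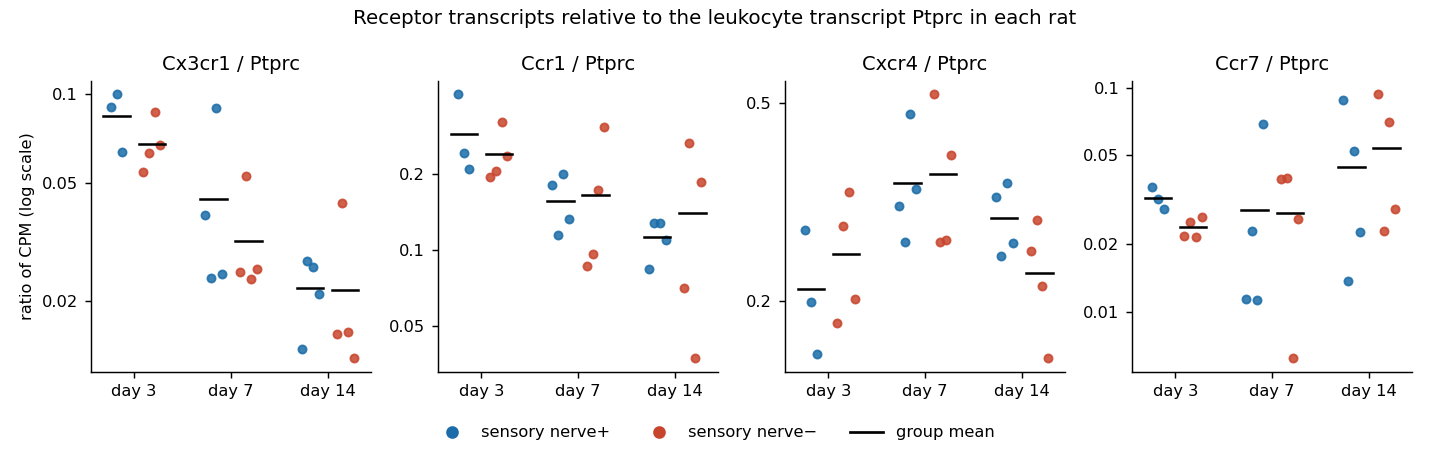
Each point is the ratio of a receptor's CPM to Ptprc CPM in 1 rat on a log axis, for Cx3cr1, Ccr1, Cxcr4 and Ccr7, with black bars for group means. The day 14 points of Cx3cr1, at 0.0428 or below, lie under the day 3 points, at 0.0545 or above, in both nerve groups.

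Across the 23 rats the receptors fell into those that followed Ptprc and 1 that ran against it. Pearson's r of log2(CPM + 0.5) with Ptprc was 0.88 for Cxcr4, 0.79 for Ccr7, 0.73 for Ccr2, 0.71 for Ccrl2, 0.66 for Ccr1 and 0.49 for Cx3cr1. It was -0.39 for Ackr3, and -0.55 when each rat was taken as its deviation from its group mean. For Ackr3 these levels went against its listing as a receptor of infiltrating leukocytes. Over all 23 rats the closest pair of the 7 was Ccrl2 and Cxcr4 (r = 0.82), and Cx3cr1 and Ccr1 had 0.74. Taken as deviations from the group means, Ccr1 and Ccr2 were the closest, at 0.79, and Ccrl2 and Cxcr4 had 0.77. These values share library, depth and the scaling, and are given as a description.

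The genes most like each receptor differed in kind. Of 15858 genes, Ccr7 was followed most closely by Cd247, the zeta chain of the T cell receptor (r = 0.95), and by the receptor tyrosine kinase Ret (0.95). Cxcr4 was nearest to Zfp36l2 (0.94), Pik3cd, a leukocyte PI3 kinase (0.92), and Cytip (0.92). Cx3cr1 was nearest to Pik3cg, the PI3 kinase that acts under G protein-coupled receptors (0.93), followed by Gak (0.92) and the actin gene Actb (0.90). Ccr1 was nearest to Rbm47 (0.94), Nfam1 (0.92) and Sema4a (0.92), and Ccr2 to Tf, transferrin (0.90), Slc25a16 (0.86) and Card9, an adaptor of myeloid cells (0.86). Ccrl2 was nearest to Vsir (0.87), Mybpc3 (0.86) and Inpp5k (0.85). Ackr3 was nearest to Magi1 (0.85), Plpp3 (0.83) and LOC100910046 (0.81).

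Ligands of these receptors differed between days in both nerve groups. Of 17 listed ligands, 15 were tested from day 3 to day 7 in sensory nerve+ rats. Of these 8 lay below 0 and 3 were called lower by edgeR, where 1.79% of all genes were called lower. Ccl2, the main ligand of Ccr2, fell from 171, 36.8 and 86.8 CPM to 28.2, 9.27, 15.2 and 15.6 CPM (-2.48 on the log2 scale, SE 0.567, adjusted p = 0.0483 with edgeR). Ccl7 fell by 3.02 and Mif, a cytokine that binds Cxcr4 and Ackr3, fell by 1.85 on the log2 scale. In sensory nerve- rats Ccl2 fell by 1.72 and Mif by 1.53 over the same days. By day 14 in sensory nerve- rats 8 of 14 tested ligands lay below 0 and 6 above, with 4 called lower and 2 called higher, where 23.5% of all genes were called in either direction. Ccl2 (-3.77), Ccl7 (-3.60), Ccl12 (-2.78) and Mif (-1.63) fell, and Ccl5, a ligand of Ccr1 made by T cells, rose by 3.74 (SE 0.743, adjusted p = 0.0123, edgeR). Ccl21, the ligand of Ccr7, rose by 4.35 (SE 1.09, adjusted p = 0.0256, edgeR), from 0.696, 0.0475, 0.280 and 0.375 CPM to 1.39, 19.5, 7.29 and 1.30 CPM. The sensory nerve- day 14 rat highest in Ccl21, replicate 2, was the lowest in Ccr7. In sensory nerve+ rats Ccl12 (-4.54) and Mif (-2.43) were called lower at day 14, 2 of 15, where 5.78% of all genes were called in either direction. The median log2 fold change of the ligands was -0.16, 0.51, 0.45 and -0.10 in sensory nerve+ at day 7 and day 14 and in sensory nerve- at day 7 and day 14, against 0.05, 0.00, -0.01 and -0.05 over all genes.

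Other chemokine receptors were called at day 14 in both nerve groups. In sensory nerve- rats 9 of 13 tested receptors of a list of 17 were called higher than at day 3, where 8.89% of all genes were, with a median log2 fold change of 2.74 against -0.05 over all genes. The lymphocyte markers, with their median of 2.71, moved with these receptors, and their part was not tested. The higher ones were mostly receptors of T and B lymphocytes, with Cxcr3 at 2.88 (SE 0.423), Cxcr6 at 3.58 (SE 0.649), Cxcr5 at 3.11 (SE 0.694), Ccr4 at 3.95 (SE 0.840, from a day 3 mean of 0.130 CPM), Ccr6 at 2.74 (SE 0.716) and Ccr9 at 2.08 (SE 0.629). Cxcr2, the neutrophil receptor, gave 3.85 (SE 1.01), Xcr1 of cross-presenting dendritic cells 1.82 (SE 0.450) and Ackr1, a chemokine-binding protein of venules and red cells, 2.95 (SE 0.871). Cmklr1, the signalling chemerin receptor, fell by 1.05 on the log2 scale. Of the 13 tested receptors 2 were called lower, where 14.6% of all genes were. In sensory nerve+ rats Ackr1 (3.67), Cxcr6 (2.63), Ccr4 (2.12) and Cxcr5 (1.87) rose, 4 of 15 tested, where 2.69% of all genes were called higher. Of the same 15, 1 was called lower, where 3.09% of all genes were. At day 7 Ackr1 was the 1 receptor of the list called in either nerve group, higher by 2.64 and 2.39 on the log2 scale. It was 1 of 14 tested in sensory nerve+ rats, where 4.88% of all genes were called higher. In sensory nerve- rats it was 1 of 12 tested, where 3.68% of all genes were, so these single calls lay near the background.

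Genes of the signalling path below the receptors were called in 3 of the time comparisons. From day 3 to day 7 in sensory nerve+ rats 16 of 18 lay below 0 and 2 were called lower, where 1.79% of all genes were, the arrestin Arrb1 (-0.64, SE 0.137) and Pik3cg (-1.39, SE 0.311), the gene nearest to Cx3cr1. In sensory nerve- rats Rgs1, which ends G protein signals, was the 1 gene of 18 called higher at day 7 (1.96, SE 0.485). Of all genes 3.68% were called higher there. The G protein subunit Gnb1 was the 1 of 18 called lower at day 14 (-0.35, SE 0.108), where 14.6% of all genes were. These single calls lay near or under the background. Nerve transection called no gene of the 3 lists at any day. Smallest in p at day 7 were Ccl4 (1.28, SE 0.522), Rgs2 (0.56, SE 0.225) and Ccl7 (1.44, SE 0.606), and at day 14 Cxcr6 (1.00, SE 0.368), Grk3 (0.86, SE 0.318) and Ccl4 (1.24, SE 0.476), none past the adjusted threshold. Of the 18 signalling genes 17 lay above 0 at day 7 and 17 at day 14, with medians of 0.52 and 0.47 beside -0.01 and 0.03 over all genes, in the same comparisons in which the leukocyte markers lay above 0, whose part was not tested.

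In LPS-treated macrophages 5 of the 7 receptors had reads above the floor. The genes of the mouse assembly mm10 were Cx3cr1 (chr9:119901616-120069879, minus strand), Ccrl2 (chr9:111054486-111057519, minus), Ccr1 (chr9:123962124-123968692, minus), Ccr2 (chr9:124101950-124113557, plus) and Cxcr4 (chr1:128588199-128592293, minus). Per kilobase of exon, Cx3cr1 was the highest at 24.2 ± 0.709 CPM, followed by Ccrl2 at 9.51 ± 0.412, Ccr1 at 2.47 ± 0.258, Ccr2 at 0.890 ± 0.0496 and Cxcr4 at 0.192 ± 0.0252 CPM per kb (SD, n = 6 LPS cultures). Ccr7 (chr11:99144196-99155077, minus) and Ackr3 (chr1:90203980-90216751, plus) had 0 or 1 read in every culture, under the floor of 3 counts, so no fold was computed. Of 10 monocyte and macrophage markers 7 lay above the floor and C1qa, C1qb and Cd163 did not, and of 8 lymphocyte markers 7 lay at or under it.

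CGRP moved no receptor past the threshold, where 0.0222% of 13492 genes were called by limma. Ccrl2 came closest. It stood at 23.1 CPM in the lowest, 24.5 in the median and 25.9 in the highest LPS culture, and at 22.9, 22.5, 22.6, 22.0 and 23.3 CPM in the 5 LPS+CGRP cultures. The highest LPS+CGRP culture lay above the lowest LPS culture, and no receptor separated the groups, where 1.11% of genes did. On the log2 scale it stood at -0.12 (SE 0.0292, unadjusted p = 6.81e-04, adjusted p = 0.173, limma), and 10.1% of all genes had an unadjusted p under 0.05. The values of the other receptors were -0.05 (SE 0.0613) for Ccr1, 0.03 (SE 0.0480) for Ccr2, -0.06 (SE 0.0798) for Cxcr4 and 0.00 (SE 0.0184) for Cx3cr1. Of the ligands, Ccl5 (-0.11, adjusted p = 0.0875), Ccl4 (-0.11, adjusted p = 0.108) and Ccl7 (-0.10, adjusted p = 0.133) had the smallest p by limma, and 9 of 11 tested ligands lay below 0 with none called.

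**Figure D5:**
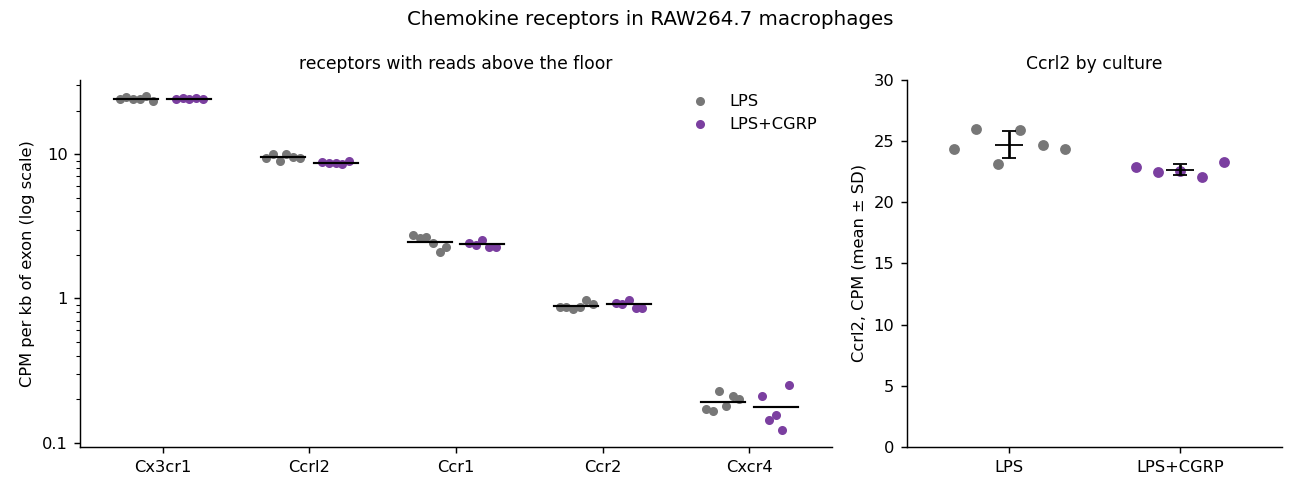
Left, CPM per kilobase of exon on a log axis for the 5 receptors above the floor, each point 1 culture, with LPS in grey, LPS+CGRP in purple and bars for the means. Right, Ccrl2 CPM by culture with mean and SD, where the 2 groups meet between 23.1 and 23.3 CPM.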

How the data were processed

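The receptors and the gene lists were chosen with earlier results of these data known. Per the labels, rat reads were aligned with HISAT to mRatBN7.2, and Bowtie2 was also named. The authors deposited expected counts per gene, 37.0% of them whole, by a counting program not given in the sources used here. They were rounded to whole counts, scaled by TMM, filtered with filterByExpr and compared by edgeR (version 4.0.16, quasi-likelihood). Each comparison was fitted on the rats it compares, and the interaction on all 23. Macrophage reads were trimmed with cutadapt, aligned with STAR to mm10 and counted with featureCounts. The authors deposited them as a signal, reads times 1 factor per run, from which whole reads were recovered (100% of values within 0.01 reads). The deposited signal of the 2 runs of a culture was summed and scaled by TMM. Its log2(CPM + 0.5) was tested with limma 3.58.1, so changes of low genes are understated. The recovered reads served for read counts and for the edgeR and DESeq2 alternatives. Adjusted p-values are Benjamini-Hochberg over all genes tested, two-sided, with a threshold of 0.05.

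Alternatives were DESeq2 1.42.0, other scalings, no filter, other pseudocounts, a replicate block, single runs and leaving out each sample. All 7 receptors were described, with every called gene of each list, or those with the smallest p where none was called, and the 3 genes most like each receptor, except 2 genes whose results are not reported here. The fits were checked on simulated data. Nothing says that the cultures were separate, so their p-values measure only the spread between these samples. The floor of 3 counts covers counting error only. Mouse gene positions and exon lengths are from GENCODE vM21.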

Additional observations from a re-analysis of the deposited data

Results flagged for a closer look

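Dixon's test at the 95% level was applied to each receptor in each group of 4 to 6 samples, 45 tests in all, and chance marks about 1 in 20. It marked 2. Ccr7 in replicate 1 of sensory nerve+ day 14 was 26.3 CPM, far above the 7.35 to 9.21 CPM of the other 3 rats. Ackr3 in replicate 1 of sensory nerve- day 7 was 46.4 CPM, against 8.74 to 12.5 CPM in the other 3, and the same rat had the lowest Cx3cr1 (2.92 CPM), Ccr1 (10.1 CPM) and Ptprc (117 CPM) of its group.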

How the results depend on the processing

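With DESeq2, transection called 1 gene at day 7 and 95 at day 14, and the interactions 8 and 30. Sensory nerve+ gave 2807 (day 7 over 3, with 2 receptors), 3377 (14 over 3) and 320 (14 over 7). Sensory nerve- gave 3217 (7 over 3, 1 receptor), 4852 of 14449 (14 over 3, 3 receptors) and 1991 (14 over 7, 1 receptor). With library totals sensory nerve+ gave 579, 547 and 13 in the same order, and sensory nerve- 1184 for day 14 over 3 (0 receptors) and 21 for 14 over 7. The median of all genes then moved to -0.41 for transection at day 14, and to -0.42 and -0.40 for sensory nerve- day 14 over 3 and 7. For the interactions at day 14 and day 7 it moved to -0.47 and -0.12. Higher and lower calls split 507 to 72 in place of 733 to 269 (sensory nerve+ 7 over 3), 358 to 189 in place of 406 to 465 (sensory nerve+ 14 over 3) and 308 to 876 in place of 1284 to 2112 (sensory nerve- 14 over 3). Fitting all 23 rats gave 2606 genes (sensory nerve+ 14 over 3), 2287 and 927 (sensory nerve- 7 over 3 and 14 over 7). Without the filter 0 receptors were called for sensory nerve- day 14 over 3. For CGRP, edgeR on recovered reads called 0, DESeq2 86, the deposited values without rescaling 18 and run 1 alone 7. The cause of these differences was not tested.

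With the replicate number as a block, sensory nerve+ gave 122, 0 and 0 genes (7 over 3, 14 over 3, 14 over 7; 0 receptors in the first), sensory nerve- 2 (7 over 3) and 0 (14 over 7), with 0 receptors for 14 over 3, and CGRP 28. Cx3cr1 in sensory nerve+ day 7 over 3 then had an adjusted p of 0.0717 and Ccr7 in sensory nerve- day 14 over 3 one of 0.151 (edgeR). Deviations of same-numbered samples correlated with means between -0.11 and 0.15, and the lowest pair of each comparison was under 0.1. The highest mean, 0.15 for transection at day 7, stood against -0.054 for other pairs. These correlations gave no clear pairing by number, and so few pairs cannot exclude it.

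Signs turned for Ccr2 at day 14 of transection (0.029 with the block, and -0.96 to 0.45 with 1 rat left out), for Cxcr4 (-0.088) and Cx3cr1 (-0.17) there with library totals, and for Cx3cr1 at day 7 (-0.0061 to 0.94 with 1 rat left out, the lowest without sensory nerve- replicate 2). Without single rats Ccr2 lay between -0.12 and 1.32 for sensory nerve+ day 14 over 3 and between -0.91 and 0.56 for the interaction at day 14, and in all 3 Ccr2 results the turn came without sensory nerve+ day 14 replicate 2. With CGRP, Ccr1 was 0.060 in deposited values, Ccr2 -0.013 in run 2, and Cx3cr1 -0.014 in run 1, -0.011 with the block and -0.011 to 0.013 with 1 culture left out. Leaving out 1 sample gave 254 to 1547 genes and 0 to 1 receptors (sensory nerve+ 7 over 3), 0 to 3133 and 0 to 1 (14 over 3), 0 to 28 (14 over 7), 0 to 1359 and 0 to 1 (sensory nerve- 7 over 3), 1620 to 4346 and 0 to 3 (14 over 3), 0 to 814 (14 over 7) and 0 to 25 (CGRP), and 0 for each transection and interaction. The tally of single-receptor values with all samples covered only part of the receptor results. Of the values tallied, 238 kept direction and side of the threshold, 4 lost the threshold, 5 passed it and 7 turned sign. Outside this tally Ccr2 turned sign in sensory nerve- day 7 over 3 (0.026 with DESeq2). So did Ccrl2 at day 3 of transection (0.050 with library totals), among others. Cxcr4 with run 2 of the cultures alone could not be fitted.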
